A study of Mus musculus with 6 samples.

Results

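Sperm-egg fusion genes encode proteins that a sperm needs, or that are related to proteins it needs, to merge its membrane with that of the egg. The 10 genes described here are Izumo1, Izumo2, Izumo3, Izumo4, Spaca6, Tmem95, 4930451I11Rik (whose protein is known as FIMP), 1700034O15Rik (now named Llcfc1, its protein known as SOF1), Dcst1 and Dcst2. They were found on the arrays by gene name, by a synonym or by RefSeq accession, and all 10 were present, with 14 probes among 41174 and 10 of 27343 genes. All 14 probes were well above background on all 6 arrays and all 10 genes entered the test, so no member was lost to the filter on dim probes.

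Fusion takes place after a sperm has passed the egg's coat and lost its acrosomal cap, which uncovers the fusion proteins on the sperm head. IZUMO1 on the sperm binds JUNO on the egg, and SPACA6 sits beside IZUMO1 in the sperm membrane. TMEM95, FIMP, SOF1, DCST1 and DCST2 are each needed for fusion as well, and the RNAs of such genes are made in the testis by haploid spermatids, the cells that turn into sperm.

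Testis RNA came from 3 mice labelled as knockouts (Prss37KO) of Prss37, a testis gene of the trypsin family, and from 3 wild-type mice. All were males on a C57BL/6 background aged 6 to 8 weeks, and no treatment is named for either genotype. The labels give neither the deleted part of Prss37 nor the way the allele was made. For the knockout mice the title and source fields name Prss37 and the description names Prss55, and the grouping follows the title. Each RNA was labelled with Cy3 and hybridised to a single-colour Agilent array, and the design text gives the number of samples as mice.

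Between 69.2% and 71.4% of spots were well above background on each array and 0 were saturated. Signals are given here after scaling each array to a common 75th percentile of 1617, from values of 1550 to 1707. The single Prss37 probe, on chromosome 6 from 40464853 to 40464912 (mm9), had scaled signals of 67592, 73824 and 71562 in knockout replicates 1, 2 and 3 and of 116135, 107860 and 124390 in wild-type replicates 1, 2 and 3. Every knockout array was lower, and the log2 difference was -0.71 (SE 0.07, adjusted p = 0.024 with limma). Whether the probe lies in the deleted part is unknown, so it may check nothing. The arrays lay on a pair of slides, which were also scanned separately, with replicates 1 and 2 of each genotype on slide 1 and replicate 3 of each on slide 2. Wild-type replicate 3 was the highest of the wild-type arrays for 8 of the 10 fusion genes, against 39.4% of all tested genes. Whole testis holds many cell types, so in what follows fewer cells of a type and less RNA per cell cannot be told apart.

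All 10 fusion genes had a higher mean in knockout than in wild-type testes, by 0.02 to 0.39 on the log2 scale (Izumo3 not with quantile normalization), but 0 of them passed the test (limma with Benjamini-Hochberg adjustment over 18976 genes, adjusted p under 0.05), in either direction. Over all tested genes 2.46% passed, 1.21% higher and 1.25% lower. Tmem95, 4930451I11Rik, Dcst1 and Dcst2 had an unadjusted p under 0.05, 4 of 10 higher and 0 lower, where 11.9% of all genes were higher and 12% lower at that p. In 5 of 10 the 3 knockout arrays all lay above the 3 wild-type arrays, where 15.5% of all genes did so, and in 0 they all lay below, against 16% of all genes. The median log2 difference was 0.10 for the 10 genes and -0.0024 for all genes, of which 49.3% had a difference above 0. Tmem95, 4930451I11Rik and Dcst1 passed with array weights (adjusted p of 0.033, 0.033 and 0.036), 3 of 10 where 4.42% of all genes were called higher. They also passed with a robust variance trend (0.048, 0.024 and 0.036), under which 3.64% of all genes were called higher.

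**Figure D1:**
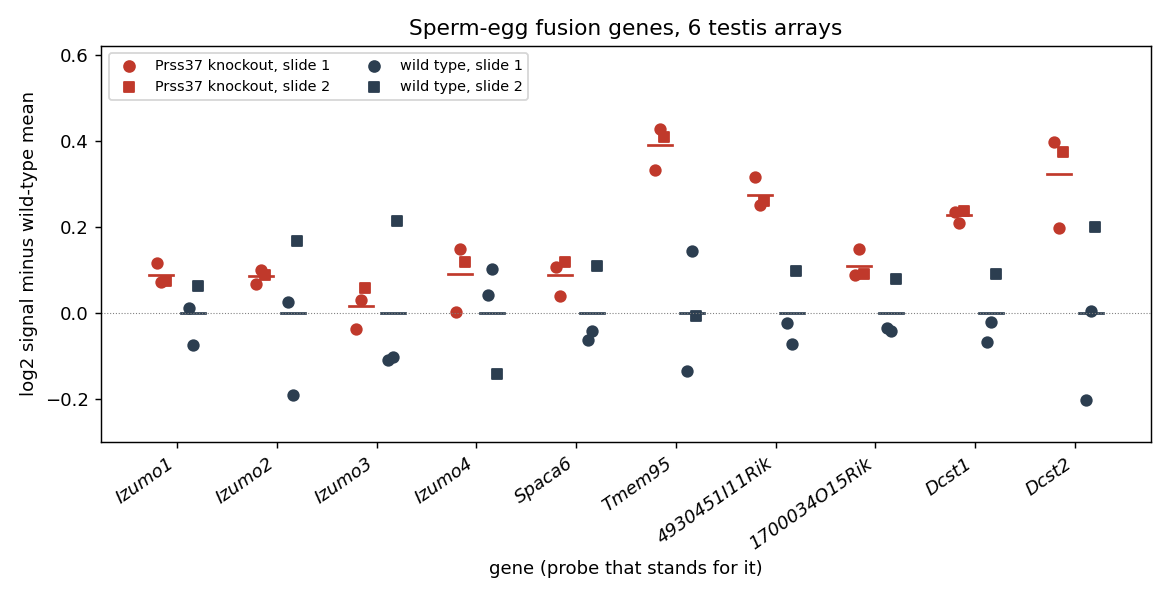
Log2 signal of each fusion gene (x axis) on each array, minus the mean of the 3 wild-type arrays (y axis, log2 units), with knockout arrays in red and wild-type arrays in dark blue, circles for slide 1, squares for slide 2 and short lines for group means. The 3 knockout arrays of Tmem95, 4930451I11Rik and Dcst1 sit at 0.21 to 0.43 above the wild-type mean, clear of the wild-type arrays, while those of Izumo2, Izumo3 and Izumo4 overlap with them.

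IZUMO1 and its neighbour in the sperm membrane came with small differences. The Izumo1 probe joins separate stretches of chromosome 7 between 52879588 and 52880333 (mm9), so it spans an intron of the gene. Izumo1 had scaled signals of 4648, 4510 and 4514 in knockout replicates 1, 2 and 3 and of 4322, 4074 and 4481 in wild-type replicates 1, 2 and 3. The knockout arrays all lay above the wild-type arrays, though the lowest of them exceeded wild-type replicate 3 by less than the spread among the wild-type arrays. The log2 difference was 0.09 (SE 0.05, 95% interval -0.03 to 0.21, adjusted p = 0.34 with limma), which on the linear scale is 0.978-fold to 1.15-fold.

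The window before the Izumo1 start is shown because it holds the full cAMP response element, the site bound by CREM, a transcription factor of spermatids. The sequence is from RefSeq (GRCm38.p6, chr7:45621561-45621860, plus strand, 250 bases before to 50 after the start, 5′ to 3′), with TGACGTCA in capitals.
Izumo1: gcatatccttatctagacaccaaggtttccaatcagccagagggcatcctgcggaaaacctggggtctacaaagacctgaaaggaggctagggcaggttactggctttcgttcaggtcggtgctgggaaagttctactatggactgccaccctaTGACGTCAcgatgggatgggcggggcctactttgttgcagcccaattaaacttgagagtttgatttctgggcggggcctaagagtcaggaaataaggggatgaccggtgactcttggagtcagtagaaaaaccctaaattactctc

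The element begins 96 bases before the Izumo1 start. TGACGTCA, which reads the same on both strands, was in 1.79% of 32851 promoter windows of this length and in 1 of the 9 member windows in the table, which had none for Izumo4. Its core TGACG, searched on both strands and contained in the full element, was in 20.8% of windows and in 2 of 9 members, Izumo1 and Tmem95. A match of letters is a description and not a bound site.

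Spaca6, an immunoglobulin-domain membrane protein like IZUMO1, was named Ncrna00085 in the scanner files. Its brighter probe, on chromosome 17 from 17974666 to 17974725 (mm9), had signals of 6220, 5933 and 6267 in knockout replicates 1, 2 and 3 and of 5523, 5605 and 6223 in wild-type replicates 1, 2 and 3. The groups overlapped, with wild-type replicate 3 at the level of the knockout arrays. The difference was 0.09 (SE 0.06, interval -0.06 to 0.23, adjusted p = 0.43). A further Spaca6 probe, from 17970550 to 17970609, read 55.6 to 119 over the 6 arrays, where the lowest signals well above background were 27.7 to 36.0. Its difference of -0.07 (SE 0.34) was too imprecise to compare, with an interval from -0.90 to 0.76.

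Tmem95 had the highest log2 difference of the 10. Its protein is a small sperm membrane protein without which sperm bind eggs but do not fuse with them. The probe, on chromosome 11 from 69691359 to 69691418 on the minus strand (mm9), starts at base 102 of the transcript and is shown because the result rests on it alone.
Tmem95 probe: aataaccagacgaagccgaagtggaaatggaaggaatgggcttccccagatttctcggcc

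Scaled Tmem95 signals were 208, 222 and 219 in knockout replicates 1, 2 and 3 and 150, 182 and 164 in wild-type replicates 1, 2 and 3. The genotypes did not overlap, and here the highest wild-type array was replicate 2, not replicate 3. The means were 216 ± 7.6 (SD, n = 3) and 166 ± 16.1 (SD, n = 3). The log2 difference of 0.39 (SE 0.08, interval 0.20 to 0.58) missed the threshold at an adjusted p of 0.060 with limma. The Tmem95 difference was alike on the slides, 0.38 on slide 1 and 0.42 on slide 2, and blocking on slide gave an adjusted p of 0.088. Without wild-type replicate 2 the difference was 0.46 and passed (adjusted p = 0.039), as did 2.32% of all genes as higher. Tmem95 did not pass with any other array left out (adjusted p up to 0.19 with limma).

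The Tmem95 promoter window holds the core of the cAMP response element but not the full element. It is given from RefSeq (GRCm38.p6, chr11:69878006-69878305, minus strand), with TGACG in capitals, 208 bases before the start.
Tmem95: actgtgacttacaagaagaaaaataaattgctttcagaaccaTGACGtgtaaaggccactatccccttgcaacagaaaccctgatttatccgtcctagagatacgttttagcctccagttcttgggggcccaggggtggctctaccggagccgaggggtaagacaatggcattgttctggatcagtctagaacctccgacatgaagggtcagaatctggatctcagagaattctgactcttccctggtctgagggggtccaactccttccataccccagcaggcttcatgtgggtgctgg

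4930451I11Rik encodes FIMP, a single-pass membrane protein of the sperm head. It too was measured by 1 probe, at chromosome 7 from 133974428 to 133974487 on the minus strand (mm9), starting at base 140 of its transcript.
4930451I11Rik probe: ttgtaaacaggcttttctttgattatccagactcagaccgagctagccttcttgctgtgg

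4930451I11Rik signals were 11790, 11270 and 11335 in knockout replicates 1, 2 and 3 and 9323, 9009 and 10128 in wild-type replicates 1, 2 and 3. The genotypes did not overlap, and wild-type replicate 3 was the array nearest to the knockout arrays. Knockout testes averaged 11465 ± 283 (SD, n = 3) and wild-type testes 9487 ± 577 (SD, n = 3). The log2 difference was 0.27 (SE 0.06, interval 0.14 to 0.41, adjusted p = 0.062 with limma). The difference was 0.33 within slide 1 and 0.16 within slide 2, and blocking on slide gave an adjusted p of 0.082. With wild-type replicate 3 left out it was 0.32 and passed (adjusted p = 0.047), as did 1.18% of all genes as higher. With any other array left out it did not pass (adjusted p up to 0.19 with limma).

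1700034O15Rik encodes SOF1, a sperm protein that is also needed for fusion. Its probe lies on chromosome 6 from 41635597 to 41635656 (mm9), 1.17 Mb from the Prss37 probe, closer to the targeted gene than that of any other fusion gene, none of which is on chromosome 6. Signals of 91490, 95426 and 91614 in knockout replicates 1, 2 and 3 stood against 83939, 83520 and 90946 in wild-type replicates 1, 2 and 3. The knockout arrays lay above all wild-type arrays, with wild-type replicate 3 just below the lowest of them. The difference was 0.11 (SE 0.05, interval -0.01 to 0.23, adjusted p = 0.25), with 0.16 on slide 1 and 0.01 on slide 2.

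**Figure D2:**
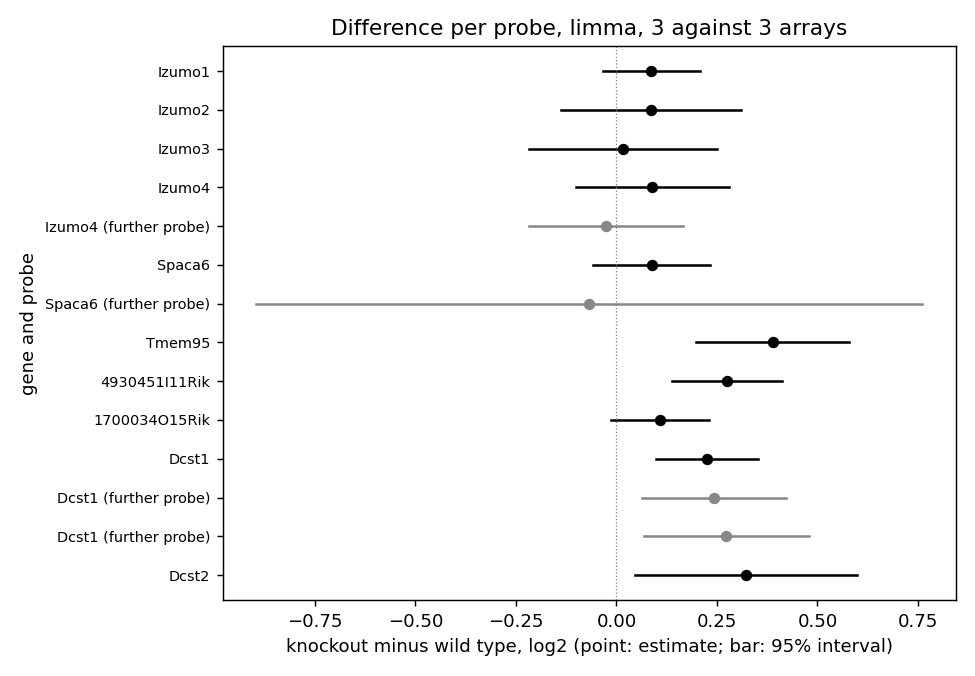
Knockout minus wild-type log2 difference (x axis) of each of the 14 probes of the fusion genes (y axis), as limma estimates with 95% intervals, the probe that stands for a gene in black and further probes in grey. The intervals of Tmem95, 4930451I11Rik, all 3 Dcst1 probes and Dcst2 lie above 0, and the dim further Spaca6 probe has the widest interval, -0.90 to 0.76.

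Dcst1 and Dcst2 encode related multi-pass membrane proteins of the sperm head that work together, and they were measured by 4 probes. Dcst1 is the fusion gene with the most probes, and they lie apart in its transcript, from base 697, 1720 and 1787. The 3 Dcst1 probes and that of Dcst2 are shown, since they are separate readings of a gene pair.
Dcst1 probe from base 1787: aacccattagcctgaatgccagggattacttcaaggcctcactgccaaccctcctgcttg
Dcst1 probe from base 1720: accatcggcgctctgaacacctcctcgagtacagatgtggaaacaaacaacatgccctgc
Dcst1 probe from base 697: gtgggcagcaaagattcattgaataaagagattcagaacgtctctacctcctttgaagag
Dcst2 probe from base 975: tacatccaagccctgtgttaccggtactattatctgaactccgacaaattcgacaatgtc

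No run longer than 7 bases of these Dcst1 and Dcst2 probes occurs in a probe of another fusion gene. The Dcst1 probe from base 1787 (chromosome 3 from 89156696 to 89156755, minus strand, mm9), which stands for the gene, had signals of 3356, 3297 and 3360 in knockout replicates 1, 2 and 3 and of 2721, 2812 and 3036 in wild-type replicates 1, 2 and 3. Knockout arrays differed from each other far less than wild-type arrays did, at 3338 ± 35.4 (SD, n = 3) against 2856 ± 162 (SD, n = 3), and the groups did not overlap. The log2 difference was 0.23 (SE 0.05, interval 0.10 to 0.35, adjusted p = 0.075 with limma), with 0.27 on slide 1 and 0.15 on slide 2. Blocking on slide gave an adjusted p of 0.085. Leaving out wild-type replicate 3 gave 0.27 at an adjusted p of 0.0498, under the threshold, where 1.18% of all genes were called higher. Dcst1 did not pass with any other array left out (adjusted p up to 0.22 with limma).

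The other Dcst1 probes gave close to the same difference. The probe from base 1720 read 3172, 2975 and 3129 in knockout and 2464, 2503 and 2893 in wild-type replicates 1, 2 and 3, a log2 difference of 0.24 (SE 0.07). That from base 697 read 289, 260 and 247 in knockout and 223, 201 and 235 in wild-type replicates 1, 2 and 3, a difference of 0.27 (SE 0.08). On all 3 probes the knockout arrays lay above the wild-type arrays, and with each probe tested on its own over 28306 probes, of which 1.04% passed (0.466% higher and 0.569% lower), the adjusted p of the 3 was 0.084, 0.14 and 0.14. The probes read the same RNA samples, so they are no replicates of the mice.

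The Dcst2 probe (chromosome 3 between 89171849 and 89172064, plus strand, mm9) had signals of 220, 191 and 216 in knockout replicates 1, 2 and 3 and of 145, 167 and 192 in wild-type replicates 1, 2 and 3. Knockout replicate 2 and wild-type replicate 3 were level, so the groups overlapped by a hair. The difference was 0.32 (SE 0.11, interval 0.05 to 0.60, adjusted p = 0.16), and 0.40 on slide 1 against 0.18 on slide 2. Leaving out an array moved it between 0.22 (wild-type replicate 1 left out) and 0.42 (wild-type replicate 3 left out).

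Dcst1 and Dcst2 are transcribed away from each other from start sites 66 bases apart in RefSeq. The bases shared by both promoter windows are given on the plus strand (GRCm38.p6, chr3:89365204-89365368), with the 65 bases between the start sites in capitals, Dcst1 running to the left of them and Dcst2 to the right.
Dcst1 and Dcst2: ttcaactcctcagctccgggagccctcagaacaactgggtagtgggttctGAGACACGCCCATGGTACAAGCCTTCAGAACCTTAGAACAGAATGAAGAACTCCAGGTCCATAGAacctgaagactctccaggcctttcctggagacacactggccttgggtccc

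The shared window is 165 bases long with a GC content of 53.9%, and neither window holds TGACG. In the RefSeq table the gene body of Dcst2 runs over that of Dcst1 on the other strand, while the 3 Dcst1 probes are oriented to the minus strand and the Dcst2 probe to the plus strand. Over the 6 arrays the pattern of Dcst1 differed from that of Dcst2 by a root mean square of 0.10 on the log2 scale, and from that of 4930451I11Rik, the fusion gene closest to it, by 0.041. For Dcst2, in turn, Dcst1 was the closest fusion gene.

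Izumo2, Izumo3 and Izumo4 encode relatives of IZUMO1, and none of the 3 passed the test. Izumo2, whose probe spans an intron on chromosome 7 between 51964474 and 51965657 (mm9), read 39225, 40106 and 39776 in knockout replicates 1, 2 and 3 and 38051, 32792 and 42000 in wild-type replicates 1, 2 and 3. The wild-type arrays enclosed the knockout arrays. The difference of 0.09 (SE 0.09, interval -0.14 to 0.31, adjusted p = 0.62) was 0.17 on slide 1 and -0.08 on slide 2, and it was -0.010 without wild-type replicate 2.

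Izumo3, needed for the acrosome to form properly, read 16114, 16872 and 17200 in knockout replicates 1, 2 and 3 and 15326, 15398 and 19155 in wild-type replicates 1, 2 and 3 (chromosome 4 from 91811082 to 91811141, mm9). Wild-type replicate 3 was above and the other wild-type arrays were below all knockout arrays. Its difference of 0.02 (SE 0.10, interval -0.22 to 0.25, adjusted p = 0.94) was the smallest of the 10 and was -0.0032 with quantile normalization and -5.7e-05 in the deposited table. It was 0.12 without wild-type replicate 3, 0.10 on slide 1 and -0.16 on slide 2.

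Izumo4 encodes a family member without a membrane anchor. Its brighter probe (chromosome 10 from 80167849 to 80167908, mm9) read 22635, 25029 and 24546 in knockout replicates 1, 2 and 3 and 23243, 24267 and 20473 in wild-type replicates 1, 2 and 3. The groups overlapped, and wild-type replicate 3, the highest wild-type array for Izumo2 and Izumo3, was the lowest of all here. The difference was 0.09 (SE 0.08, interval -0.10 to 0.28, adjusted p = 0.54), with 0.0032 on slide 1 and 0.26 on slide 2, where 1 knockout array stands against 1 wild-type array. The other Izumo4 probe, at 80166962 to 80167024, had signals of 546 to 638 over the 6 arrays and a difference of -0.03 (SE 0.08).

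**Figure D3:**
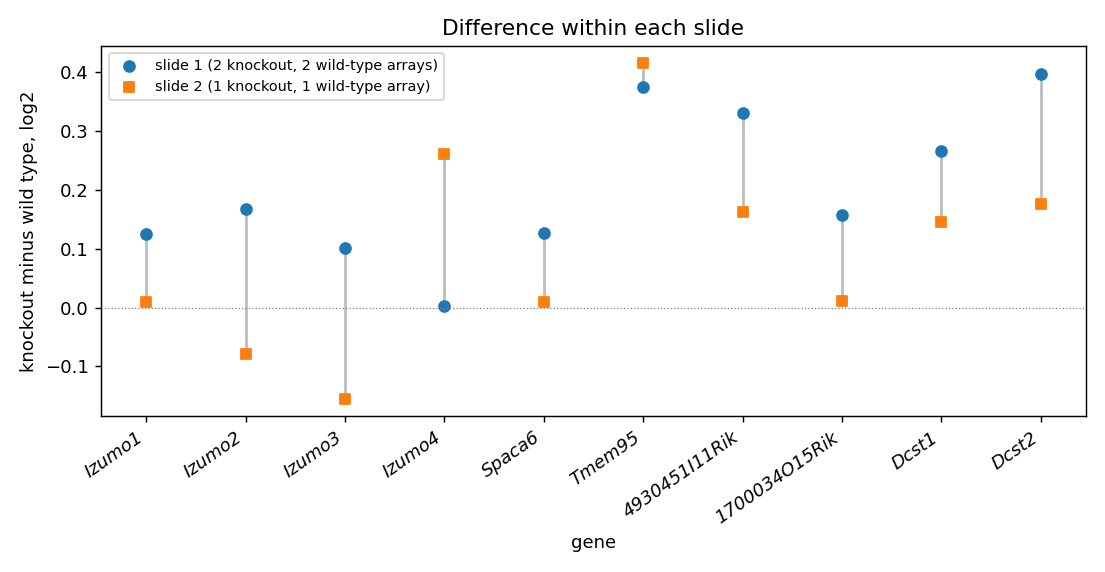
Knockout minus wild-type log2 difference (y axis) of each fusion gene (x axis) within slide 1 (blue circles, 2 knockout and 2 wild-type arrays) and within slide 2 (orange squares, 1 and 1), joined by a grey line. Tmem95, 4930451I11Rik, Dcst1 and Dcst2 are above 0 on both slides, while Izumo2 and Izumo3 are below 0 on slide 2 at -0.08 and -0.16.

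Across the 10 genes the median difference was 0.16 on slide 1 and 0.08 on slide 2, which has no replicate within a genotype. Spread within a genotype was uneven. The log2 standard deviation of the knockout arrays was smaller than that of the wild-type arrays in 10 of 10 fusion genes, with medians of 0.04 and 0.11, and in 68.1% of all tested genes. Whether the slide or wild-type replicate 3 plays a part in the differences was not tested beyond these values.

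Other genes of the pathway were read from a list of 13 sperm-side partners and helpers, of which 10 were tested. None of the 10 passed, 7 had a difference above 0, 2 were higher and 1 lower at unadjusted p under 0.05 with limma, and the median was 0.04. Of all tested genes 49.3% were above 0, and 11.9% were higher and 12% lower at that p. Cd46, a complement regulator that in mice sits on the acrosomal membrane, had the smallest p, with signals of 1073, 1188 and 1125 in knockout and 1520, 1359 and 1688 in wild-type replicates 1, 2 and 3. All knockout arrays were lower, and the log2 difference was -0.43 (SE 0.09, adjusted p = 0.063). 1700029I15Rik, known as Frey1, whose protein guards IZUMO1 in the endoplasmic reticulum, read 53176, 53511 and 52023 in knockout and 47051, 43926 and 49367 in wild-type replicates 1, 2 and 3, a difference of 0.18 (SE 0.05, adjusted p = 0.12). Crisp1, Crisp3 and Crisp4, for secreted proteins, were not tested because no genotype had all arrays well above background.

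Of 4 egg-side partners 3 were tested and 0 passed, with 1 higher at unadjusted p under 0.05, where 11.9% of all genes were higher. Of the 3, 2 had a difference above 0 and 1 below, where 49.3% of all genes were above 0. The differences ran from -0.05 to 0.19 with a median of 0.11. Itga6, an integrin chain, had 0.19 (SE 0.07, adjusted p = 0.16), and the tetraspanin gene Cd81 had 0.11 (SE 0.06, adjusted p = 0.30). Izumo1r, which encodes the IZUMO1 receptor JUNO of the egg, was well above background on 0 of 3 knockout and 1 of 3 wild-type arrays.

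The same arrays were read for genes of the cells that make the fusion proteins. For comparison, 49.3% of all tested genes had a difference above 0 and 1.21% passed as higher. At unadjusted p under 0.05 with limma, 11.9% of all genes were higher and 12% lower. Haploid spermatid markers had 16 of 21 tested members above 0 and a median of 0.09, with 0 passed (limma) and 5 higher and 1 lower at unadjusted p under 0.05. Catsper3, a sperm calcium channel gene, had 0.25 (adjusted p = 0.064) and the lysozyme-like gene Lyzl6 0.21 (0.069). Acrosome and zona binding genes had 17 of 18 above 0, a median of 0.09 and 1 passed, the zonadhesin gene Zan, which rose by 0.38 (adjusted p = 0.042), while the zona-binding gene Zp3r had 0.19 (0.089). At unadjusted p under 0.05 with limma, 4 of the 18 were higher and 1 lower. The knockout arrays all lay above the wild-type arrays in 8 of these 18 genes, 5 of 21 spermatid markers and 5 of 9 macrophage markers. They all lay below in 1, 1 and 0. Among all genes 15.5% lay above and 16% below. The summed scaled signal of the spermatid markers was 3060370 to 3371750 over knockout and 3035420 to 3282670 over wild-type arrays, and that of the fusion genes 195905 to 202855 and 177827 to 196797. Bright genes weigh most in such a sum: the knockout mean was 92843 for 1700034O15Rik, 216 for Tmem95 and 209 for Dcst2. Macrophage markers also had 9 of 9 tested members above 0, with a median of 0.23 and summed signals of 20612 to 26016 over knockout and 16233 to 20922 over wild-type arrays. The part of these cell types in the differences of the fusion genes was not tested.

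**Figure D4:**
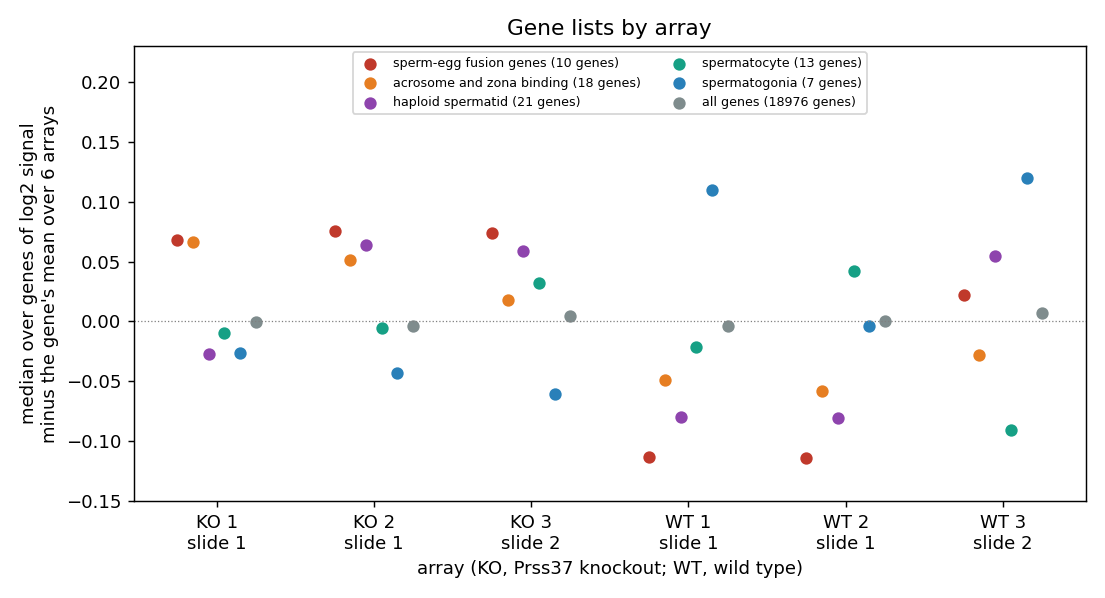
Median over the tested genes of a list of each gene's log2 signal minus its mean over the 6 arrays (y axis), for each array (x axis), with 1 colour per list. The fusion genes lie at 0.07 to 0.08 on the 3 knockout arrays, at -0.11 on wild-type replicates 1 and 2 and at 0.02 on wild-type replicate 3, where the spermatid markers are also higher (0.05) than on the other wild-type arrays (-0.08). The spermatid markers lie at -0.03 on knockout replicate 1, and the acrosome and zona binding genes at -0.03 on wild-type replicate 3.

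Markers of earlier germ cells were read in the same way, beside 49.3% of all genes above 0. Among all genes 11.9% were higher and 12% lower at unadjusted p under 0.05. Spermatocyte genes had 8 of 13 above 0 and a median of 0.05 (0 passed with limma, 2 higher and 2 lower at unadjusted p under 0.05), with Dmc1 at -0.18 (adjusted p = 0.079) and Tex15 at 0.17 (0.15). Spermatogonial genes had 3 of 7 above 0 and a median of -0.03 (0 passed, 0 higher and 2 lower at unadjusted p under 0.05), with the meiotic entry gene Stra8 at -0.42 (0.058) and Uchl1 at -0.19 (0.11).

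Genes most like the members other than Izumo4 over the 6 arrays, by root mean square difference of centred log2 values among 15896 tested genes with a symbol and 6 values, lay within 0.0086 to 0.027. They were Ptpn11 for Izumo1, Yif1b for Izumo2, Ston1 for Izumo3, Rnf216 for Spaca6, Ubash3b for Tmem95, Nadk2 for 4930451I11Rik, Babam1 for 1700034O15Rik, Ap1g2 for Dcst1 and 4930500G05Rik for Dcst2. No fusion gene was as near to one of these members. With so few fusion genes beside 15896 candidates, that comparison cannot tell how alike the fusion genes are. The fusion genes nearest each other were Izumo1 and 1700034O15Rik, at 0.040.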

How the data were processed

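The authors deposited spot intensity values as written by Agilent Feature Extraction (10.7 in the submitters' processing notes, 10.7.3.1 per the file headers), with background subtracted by that program. Outlier flags and probe positions (mm9) are those deposited. A deposited table of log2 values was used as an alternative. Its columns matched the arrays at a lowest r of 0.9999 and shared a median of 7.73; the step that made it is not given in the sources used here.

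Each array's log2 signals were centred on its 75th percentile and unflagged spots of a probe averaged. Probes well above background on every array of a genotype (28306) were tested, and the brightest stood for its gene. Genotypes were compared by lmFit and eBayes of limma 3.58.1 under R 4.3.3. P-values were adjusted by Benjamini-Hochberg over 18976 genes, with a threshold of 0.05. Intervals are unadjusted 95% limma intervals. The number of arrays limits the precision. Names and promoters came from RefSeq tables (GRCm38.p6). The fitting step was tested on simulated data with independent noise and the same spread in both genotypes. The slides and the uneven spread of these arrays were not simulated. Alternatives covered scaling, background, filter, probe choice, variance model, blocks and left-out arrays. Named genes were all members and their probes, Prss37, in the partner lists the called genes or else the 2 of smallest p, in other lists up to 2 of smallest p, and the gene most like each member, which for Izumo4 is not reported here. The members and lists were chosen with earlier results of these data known.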

Additional observations from a re-analysis of the deposited data

How the results depend on the processing

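In 19 other settings Izumo1, Izumo4, Spaca6, Tmem95, 4930451I11Rik, 1700034O15Rik, Dcst1 and Dcst2 kept a difference above 0, and the median over the 10 genes ran from 0.08 to 0.16. With an array left out, Izumo2 ran from -0.010 (wild-type replicate 2 left out) to 0.17. Izumo3 reversed to -0.0032 with quantile normalization, to -5.7e-05 in the deposited table, to -0.0040 when knockout replicate 3 was left out, and to -0.035 and -0.038 when wild-type replicates 2 and 1 were; the highest value was 0.12. Of fusion genes called higher, 0 in limma, there were 3 with array weights and 3 with a robust variance trend (Tmem95, 4930451I11Rik and Dcst1 in each), and 0 to 2 with an array left out. In no setting was a fusion gene called lower.

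Over all genes, 230 higher and 237 lower calls became 838 and 678 (array weights), 691 and 579 (robust variance trend), 125 and 150 (probes of a gene averaged), 2 and 6 (dim probes kept), 30 and 49 (blocking on slide), 0 and 2 (replicate block), and 6 and 21 (slide 1 alone, chosen after seeing the data). A left-out array gave between 0 and 442 higher calls and between 2 and 337 lower ones. Prss37, at -0.71, missed the threshold with dim probes kept (-0.71, adjusted p = 0.093), with the replicate block (-0.71, 0.13) and on slide 1 alone (-0.66, 0.12), and ran from -0.76 to -0.66 with an array left out, missing it without any 1 of the knockout arrays or wild-type replicate 1 (adjusted p of 0.072 to 0.13). Same-numbered arrays correlated at -0.03, -0.03 and 0.16 in their deviations, so the numbers were not taken as pairs. The value of 0.16 is that of replicate 3, whose arrays were also the only ones on slide 2. The cause was not tested for any of these.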

Other observations

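Lists for the other cells that the testis samples could hold were read on the same arrays. Among all tested genes 49.3% were above 0, 1.21% passed as higher and 1.25% as lower. At unadjusted p under 0.05, 11.9% of all genes were higher and 12% lower. Macrophage markers had 9 of 9 members above 0 with a median of 0.23 (0 passed in limma, 5 higher at unadjusted p under 0.05), with Cd163, for a scavenger receptor, at 0.36 (adjusted p = 0.072) and Csf1r at 0.16 (0.15). Sertoli genes had 5 of 7 above 0 with a median of 0.02 (0 passed, 2 higher and 1 lower at that p), with the homeobox gene Rhox5 at 0.26 (0.060) and the hormone receptor gene Fshr at -0.19 (0.12). Leydig genes had 3 of 6 above 0 with a median of -0.01 (0 passed, 1 lower at that p), with the steroid synthesis genes Cyp11a1 at -0.25 (0.21) and Hsd3b6 at 0.31 (0.44). Adipocyte genes had 1 of 4 above 0, and Cidea, a lipid droplet gene, fell by 0.42 (0.041), with Adipoq at 0.28 (0.47) and a median of -0.26. That median was -0.07 on slide 1 and -0.21 on slide 2, and Cfd and Lep were not tested. Adipoq read 2672 in wild-type replicate 3 against 4500 and 4483 in wild-type replicates 1 and 2. Of 2 tested erythroid genes Alas2, for heme synthesis, rose by 0.53 (0.039) and Hba-a1 had -0.25 (0.71), a median of 0.14. Of 8 epididymis genes 4 were tested, all above 0 with a median of 0.18 and none passed (1 higher at that p). The median was 0.22 on slide 1 and -0.06 on slide 2. Rnase10 had 0.24 (0.10) and Cst11 0.32 (0.37). Cst11 was well above background on 3 knockout but only 2 wild-type arrays. It entered the test through the knockout arrays alone, so its place above 0 carries no weight. Lcn5, Lcn8, Adam7 and Rnase9 were well above background on 0 arrays.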
